A study of Mus musculus with 2 samples.

Results

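The barcodes described here are mitochondrial-RNA rich barcodes of mouse liver, 651 of the 5843 barcodes of 2 libraries. Members were chosen by measured values of these same libraries: a barcode was a member if it had at least 200 genes, no UMI (unique molecular identifier) of Ptprc, Ptprb or Dcn, and a share of mitochondrial-encoded UMIs from 2% to 25%. The library labelled shBicd2 held 373 members and the library labelled scramble held 278. They are set against nucleus-like barcodes, which passed the same conditions except that their mitochondrial share was under 0.5%, of which there were 1759 in shBicd2 and 1957 in scramble. Because the mitochondrial share and every other gene of a barcode come from the same reads, all differences between these sets are descriptions with no test.

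Both libraries came from livers of wild-type C57BL/6J mice. In the shBicd2 group the mice had been infected with AAV-shBicd2, an adeno-associated virus with a short hairpin against Bicd2, and in the scramble group with AAV-scramble, its control. All mice were 4 weeks old at infection and received concanavalin A (Con A), a plant lectin that drives T cells into an acute attack on the liver, 3 weeks later at 15 mg/kg into a vein; livers were taken after 6 hours. Both groups therefore carry virus and Con A, an untreated liver is not analysed here, and the sources used here do not give the sex or number of the mice behind each library. Each group has 1 library, so no difference between groups has a replicate check and every interval covers counting error only.

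Hepatocytes are packed with mitochondria, whose own genome encodes 13 proteins of the respiratory chain and the ATP synthase. Its mRNAs are made, for the most part polyadenylated, and translated inside the organelle, so they are found where cytoplasm is. Long noncoding RNAs such as Malat1 and Neat1 stay in the nucleus, and so do unspliced or freshly made transcripts, whereas mature mRNAs of abundant liver proteins build up on ribosomes in the cytoplasm.

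The 3′ kit used for these libraries primes on poly(A), and the mitochondrial mRNAs that chose the members are shown by their last 30 bases, the end next to the tail. The bases are from GENCODE M21 transcripts on GRCm38, 5′ to 3′, and capitals mark the encoded part of the stop codon.
mt-Co1: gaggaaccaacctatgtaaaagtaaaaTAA
mt-Co3: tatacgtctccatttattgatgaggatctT
mt-Nd4: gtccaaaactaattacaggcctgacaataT
mt-Cytb: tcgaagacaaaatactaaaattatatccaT
mt-Co1 (chrM:5328-6872, plus strand) ends in a complete stop codon. mt-Co3 (chrM:8607-9390), mt-Nd4 (chrM:10167-11544) and mt-Cytb (chrM:14145-15288), all on the plus strand, end in a lone T, and the poly(A) tail supplies the rest of the codon, as is known of mammalian mitochondrial mRNAs.

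The members had a median mitochondrial share of 5.01% in shBicd2 and 4.82% in scramble, against 0.207% and 0.134% in the nucleus-like barcodes. They were shallower: the median was 914 UMIs and 516 genes in shBicd2 members and 994 UMIs and 548 genes in scramble members, against 1914 UMIs and 988 genes in shBicd2 nucleus-like barcodes and 1750 UMIs and 884 genes in scramble nucleus-like barcodes. Every barcode had at least 500 UMIs. The libraries shared 3 barcode sequences, and none of these was a member.

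**Figure D1:**
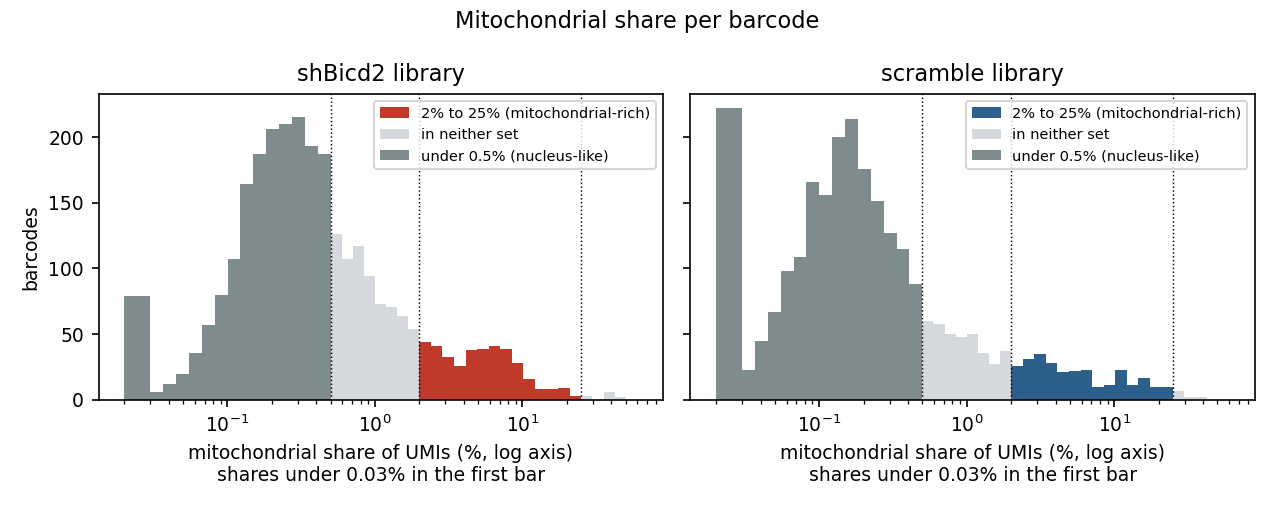
Number of eligible barcodes (y axis) by the mitochondrial share of their UMIs (x axis, log scale) in the shBicd2 library (left) and the scramble library (right), with dotted lines at 0.5%, 2% and 25%. The coloured members form the right-hand tail, 373 barcodes in shBicd2 and 278 in scramble, and no empty gap separates them from the barcodes in between.

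The limits of the rule fell within a continuous distribution. Just inside the lower limit, at 2% to 2.5%, were 61 shBicd2 and 36 scramble barcodes, in which the level of Alb, the albumin mRNA, was 3554 CPM in shBicd2 and 2207 CPM in scramble (CPM, UMIs per 1000000 non-mitochondrial UMIs). Just outside it, at 1.5% to 2%, were 92 shBicd2 and 58 scramble barcodes with Alb at 2546 and 2147 CPM. At the upper limit, 5 shBicd2 and 13 scramble barcodes lay at 20% to 25%, and 3 and 8 lay at 25% to 30%. Levels are given in CPM of non-mitochondrial UMIs throughout, so that the mitochondrial share itself does not scale the other genes.

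Of the barcodes that passed the gene and marker conditions, 13.1% were mitochondrial-rich in the library labelled shBicd2 (95% exact Clopper-Pearson interval 11.9% to 14.4%, of 2850) and 10.6% in the library labelled scramble (9.49% to 11.9%, of 2612). That order did not hold when barcodes with a UMI of 9 further genes of other cell types, among them S100a8, S100a9, Lyz2 and Hbb-bs, were left out as well: 8.38% were then mitochondrial-rich in shBicd2 (139 barcodes) and 9.59% in scramble (192 barcodes). The nucleus-like share was 61.7% in shBicd2 and 74.9% in scramble.

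The mitochondrial UMIs were spread over the 13 mRNAs in much the same proportions in members of both libraries. mt-Co3 and mt-Co1, subunits of cytochrome c oxidase, led with 23.9% and 21.1% of mitochondrial UMIs in shBicd2 members and 22.4% and 20.8% in scramble members. Then came mt-Atp6 of the ATP synthase with 14.7% in shBicd2 and 15.6% in scramble, mt-Co2 with 12.5% and 12.1%, mt-Cytb of complex III with 9.68% and 9.09%, and mt-Nd4 of complex I with 6.42% and 7.37%. These 6 mRNAs were the most counted in members of either library. At the other end, mt-Nd6, the light-strand mRNA, had 10 UMIs in shBicd2 members and 14 in scramble members, and mt-Atp8 had 16 and 17. Both overlap a neighbour: mt-Nd6 overlaps mt-Nd5 on the opposite strand, and mt-Atp8 overlaps mt-Atp6 on the same strand. Reads in the overlap of mt-Atp8 and mt-Atp6 are uncertain. The few mitochondrial UMIs of nucleus-like barcodes were made up of the same leading mRNAs, with mt-Co3 at 29.4% in shBicd2 and 25.3% in scramble and mt-Co1 at 21.1% and 24.3%.

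Hepatocyte markers were present and, as a sum, higher in the members. All 17 hepatocyte markers were detected in members of both libraries, and together they made up 57862 CPM in shBicd2 members against 21587 in shBicd2 nucleus-like barcodes, and 40099 in scramble members against 17807 in scramble nucleus-like barcodes. Single markers differed: 9 of the 17 were at least 2-fold higher in members in both libraries, against 5.57% of all genes tested. Pck1 was lower in members of both, at ratios of 0.854 in shBicd2 and 0.715 in scramble. The median member had a hepatocyte share of 5.63% in shBicd2 and 3.55% in scramble, against 2.24% and 1.81% in the nucleus-like barcodes. In the library labelled shBicd2, 312 of 373 members (83.6%) lay above the nucleus-like median, and in the library labelled scramble 241 of 278 (86.7%). Of the mitochondrial markers, mt-Co1 took 1.29% of all UMIs of shBicd2 members and 1.33% of those of scramble members. The label's word cytoplasm is a reading of RNA content, since no other measurement of cytoplasm was used here.

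RNA of other cell types was also more abundant in the members. The 8 hemoglobin genes reached 3044 CPM in shBicd2 members against 348 in shBicd2 nucleus-like barcodes, and 1525 in scramble members against 170.2 in scramble nucleus-like barcodes. Much of this was in few barcodes: 5 members held 679 of 1275 hemoglobin UMIs in shBicd2, and 5 held 364 of 490 in scramble. After thinning every barcode to 500 UMIs, Hbb-bs was seen in 19.3% of shBicd2 members against 4.89% of nucleus-like barcodes (31.6% against 15.4% unthinned), and in 9.71% of scramble members against 2.40% (15.5% against 8.89% unthinned). The marker list of neutrophils, which Con A recruits to the liver, followed the same direction without Lcn2, a gene that hepatocytes also make. The 15 markers stood at 2540 CPM in shBicd2 members against 465 in nucleus-like barcodes, and at 781 in scramble members against 308. In shBicd2, 5 members held 281 of the 1064 UMIs, and in scramble 5 held 32 of 251. Mmp8, Mmp9, Ly6g and Elane were at 0 in scramble members.

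Monocyte and macrophage markers (14 of 16 detected in shBicd2 members, 9 of 16 in scramble members) summed to 394 CPM in shBicd2 members against 69.6 in nucleus-like barcodes, and to 137 in scramble members against 36.6. Endothelial markers (12 of 16 detected in members of each library) summed to 232 against 60.5 in shBicd2 and to 106 against 30.9 in scramble. T and NK cell markers, with 12 of 18 detected in shBicd2 members from 41 UMIs, stood at 97.9 CPM against 19.6. In scramble members 5 of 18 were detected, from 10 UMIs, at 31.1 against 13.8. Among those at 0 were Trac and Cd4 in members of both libraries and Cd3e in scramble members. B cell markers, with 8 of 12 detected in shBicd2 members from 38 UMIs, stood at 90.7 against 16.7. In scramble members 4 of 12 were detected, from 21 UMIs, at 65.4 against 20.7. Ms4a1 was at 0 in members of both libraries and Pax5 in scramble members. Of the cholangiocyte markers, Sox9, Krt8, Krt18, Spp1 and Pkhd1 had a UMI in members of each library, with Epcam, Krt7 and Krt19 at 0 in both; their sum was 2342 CPM in shBicd2 members against 2362 in nucleus-like barcodes and 619 against 553 in scramble. The part of free RNA or of mixed barcodes in the gene differences below was not tested; values without barcodes that held a UMI of the 9 further genes are given for Alb, for Malat1 and for the lists whose median moved by over 1.5-fold.

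Among 7026 genes with at least 50 UMIs over the 2 sets in each library, 391 were at least 2-fold higher in members in both libraries, which is 5.57% of the genes, and 68 were at least 2-fold lower in both, which is 0.968%. In shBicd2 alone 616 genes (8.77%) were that much higher and 601 (8.55%) that much lower; in scramble alone 556 (7.91%) were higher and 398 (5.66%) lower. The median gene had a log2 ratio of −0.22 in shBicd2 and −0.10 in scramble, and the log2 ratios of the 2 libraries had a Pearson correlation of 0.58 across genes, which are not independent replicates. The imbalance between 391 and 68 went with the lower limit of the rule: with members at 5% to 25% mitochondrial share, 547 genes were at least 2-fold higher in both libraries and 405 at least 2-fold lower.

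**Figure D2:**
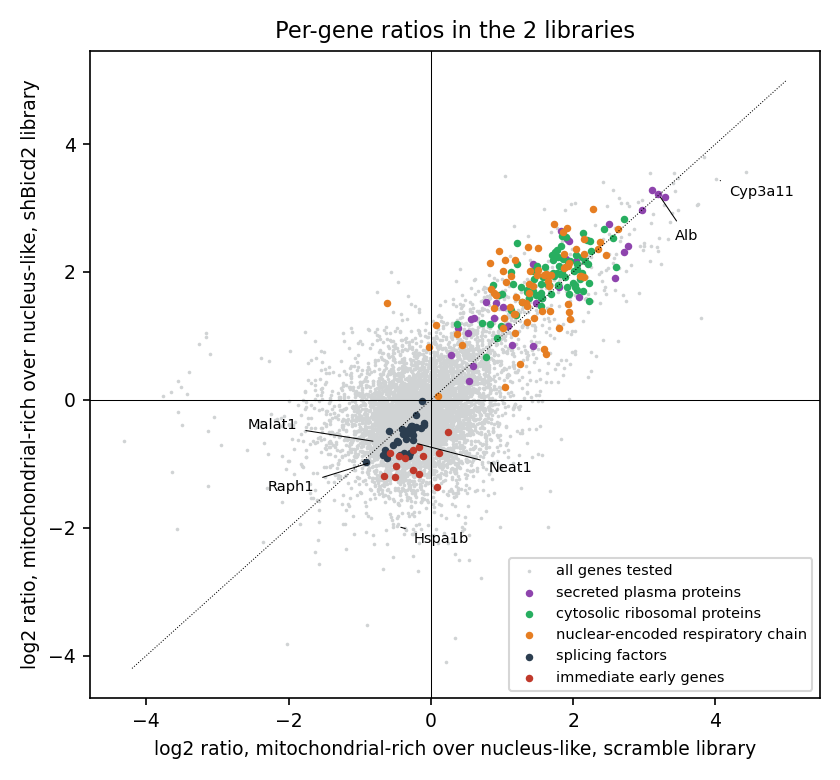
Log2 ratio of each of 7026 genes, mitochondrial-rich over nucleus-like, in the shBicd2 library (y axis) and in the scramble library (x axis), with 5 gene lists coloured and the diagonal dotted. Secreted plasma protein, ribosomal protein and respiratory chain genes lie in the upper right, while splicing factor and immediate early genes lie below 0 in shBicd2 and nearer to 0 in scramble.

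Alb (GRCm38, chr5:90460897-90476602, plus strand, protein coding) was the clearest marker of the members by level. It had 8674 CPM in shBicd2 members against 929 in shBicd2 nucleus-like barcodes, a ratio of 9.34 (95% counting interval 8.92 to 9.79). In the library labelled scramble it had 5848 CPM in members against 639 in nucleus-like barcodes, a ratio of 9.15 (8.61 to 9.72). Per barcode this was 9.74 Alb UMIs in shBicd2 members against 2.02, and 6.76 in scramble members against 1.28, although the members held fewer UMIs in all. Thinned to 500 UMIs, Alb was seen in 79.9% of shBicd2 members against 35.2% of nucleus-like barcodes (88.2% against 74.6% unthinned) and in 83.5% of scramble members against 26.0% (94.6% against 57.9% unthinned). The barcodes set aside for a UMI of Ptprc, Ptprb or Dcn, at median depths of 1030 and 1058 UMIs, showed Alb in 41.9% and 29.2% after thinning. Those barcodes are not free of hepatocyte RNA, since hepatocyte markers made up 21868 CPM of them in shBicd2 and 15691 CPM in scramble, so no share of Alb in the absence of hepatocyte RNA was measured. Without barcodes holding the 9 further genes, the log2 ratio of Alb was 2.78 in shBicd2 and 3.11 in scramble.

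The other genes with the highest ratios were hepatocyte enzymes and secreted proteins. Cyp3a11, a drug-metabolising cytochrome P450, had 609 CPM in shBicd2 members against 55.8 in nucleus-like barcodes and 367 in scramble members against 22.7, ratios of 10.9 and 16.1. Rgn, regucalcin of the vitamin C pathway, had 146 against 10.4 in shBicd2 and 121 against 8.43 in scramble, ratios of 14.0 and 14.4. Apoe, the apolipoprotein E mRNA, had 6009 against 664 in shBicd2 and 4444 against 454 in scramble, ratios of 9.06 and 9.80. These genes were higher in members by about the same factor as Alb or more.

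Ratios of the carboxylesterase gene Ces3a were 11.1 in both libraries, and those of Car3, a carbonic anhydrase, 11.7 in shBicd2 and 10.7 in scramble. Catalase mRNA, Cat, which encodes a peroxisomal enzyme, had ratios of 7.49 and 8.71, and Rida, which encodes an imine deaminase, 9.63 and 10.7. Apoh, which encodes a plasma glycoprotein, had 7.86 and 7.83. A further 3 genes belong to families of near-identical copies, so the assignment of their reads is uncertain: Serpina1d (an alpha-1 antitrypsin gene) had ratios of 9.70 in shBicd2 and 8.59 in scramble, Cyp2c50 had 10.5 and 10.6, and the sulfotransferase gene Sult2a8 had 11.9 and 21.6. All of these lay beyond the 1.5-fold bound of the naming rule, which 258 genes passed upward and 4 downward.

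Those 4 were Malat1, Raph1, Nrg4 and Lpin2. Malat1 (chr19:5795690-5802672, minus strand, lincRNA) had 17694 CPM in shBicd2 members against 27887 in nucleus-like barcodes, a ratio of 0.634 (0.620 to 0.650), and 22703 in scramble members against 38346, a ratio of 0.592 (0.578 to 0.606). Raph1, which encodes an actin regulator, had 1077 against 2114 in shBicd2 and 2331 against 4138 in scramble. Nrg4, a growth factor of the neuregulin family, had ratios of 0.515 in shBicd2 and 0.550 in scramble, and Lpin2, a phosphatidate phosphatase, 0.522 and 0.532. The ratios of these genes were nearer to 1 than those of the 12 highest genes. Without barcodes holding the 9 further genes, Malat1 had a log2 ratio of −0.38 in shBicd2 and −0.81 in scramble.

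Neat1 (chr19:5824708-5845478, minus strand, lincRNA), the scaffold of paraspeckles, had 29505 CPM in shBicd2 members against 46926 in nucleus-like barcodes, a ratio of 0.629 (0.617 to 0.640). In scramble it had 57483 in members against 68020, a ratio of 0.845 (0.833 to 0.858). Malat1 and Neat1 together took a median of 3.60% of non-mitochondrial UMIs in shBicd2 members against 6.92% in nucleus-like barcodes, and 6.86% in scramble members against 10.1%. In the library labelled shBicd2, 175 members (46.9%) lay below the 5th percentile of the nucleus-like barcodes, and in scramble 99 members (35.6%). A UMI of Malat1 was nonetheless found in most members: after thinning to 500 UMIs it was seen in 89.3% of shBicd2 members against 98.8% of nucleus-like barcodes (96.5% against 100% unthinned), and in 98.2% of scramble members against 99.8% (99.3% against 100% unthinned). The barcodes set aside for a UMI of Ptprc, Ptprb or Dcn showed it in 97.8% in shBicd2 and 100% in scramble after thinning, so the members' shares were not above those of other barcodes.

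Gene lists were described by their members with at least 50 UMIs, as a median log2 ratio beside that of all genes, and 14 of 23 functional lists lay above the median gene in both libraries. The lists were drawn up with earlier results of these data known. The medians below are mitochondrial-rich over nucleus-like. Counts of genes at least 2-fold higher in both libraries stand beside the 5.57% of all genes tested that were. For genes at least 2-fold lower in both libraries that share was 0.968%.

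**Figure D3:**
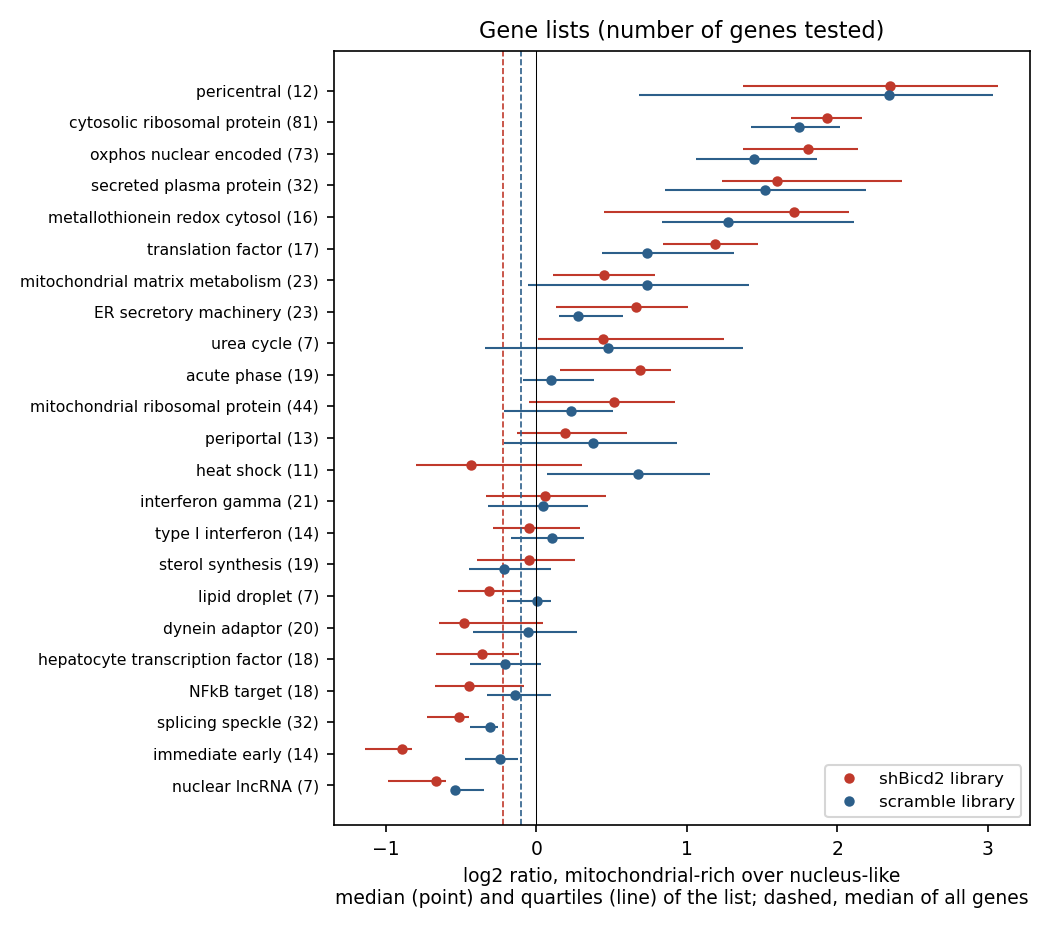
Median log2 ratio (points) and quartiles (lines) of 23 gene lists, mitochondrial-rich over nucleus-like, in the shBicd2 library (red, upper) and the scramble library (blue, lower); dashed lines are the medians of all genes tested, −0.22 and −0.10. Pericentral, ribosomal protein, respiratory chain and secreted protein lists lie at the top and nuclear noncoding RNAs, immediate early genes and splicing factors at the bottom.

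mRNAs for secreted plasma proteins were higher in members. All 32 list members exceeded the median gene in each library, the median log2 ratio was 1.60 in shBicd2 and 1.52 in scramble, and 20 of 32 were at least 2-fold higher in both. Apoa2, an apolipoprotein of high-density lipoprotein, had 6260 CPM in shBicd2 members against 929 in nucleus-like barcodes and 5340 in scramble members against 941. Ttr, the carrier of thyroxine and of retinol-binding protein, had 4539 against 917 in shBicd2 and 2605 against 396 in scramble. The most counted members moved less: Fgg and Fgb, chains of fibrinogen, had log2 ratios of 0.70 and 1.27 in shBicd2 and 0.29 and 0.61 in scramble, and Hpx, which binds heme, had 1.04 and 0.52. Alb, at 3.22 and 3.19, and Ahsg, the fetuin-A gene, at 0.29 in shBicd2 and 0.54 in scramble, were near the ends of the list. The 22 major urinary protein genes, near-identical copies counted together, stood at 27660 CPM in shBicd2 members against 5076 and at 14596 in scramble members against 2231.

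The translation apparatus was higher too, though not all of its factors were. Of 81 cytosolic ribosomal protein genes, 73 were at least 2-fold higher in members in both libraries, with median log2 ratios of 1.93 in shBicd2 and 1.75 in scramble. Rplp1, of the ribosomal stalk, had 630 CPM in shBicd2 members against 98.9 and 423 in scramble members against 78.2; Rpl41 had 733 against 193 and 473 against 159. Several ribosomal protein genes have processed copies in the genome, so single values are less certain than the sum, which was 20810 CPM in shBicd2 members against 5646 and 13976 in scramble members against 4413. Translation factors had medians of 1.19 in shBicd2 and 0.74 in scramble, and 3 of 17 were at least 2-fold higher in both. That count is too small to set against the 5.57% of all genes tested. Of their 4 most counted genes, Eef1a1, the elongation factor, had 1.37 and 1.32. Pabpc1 had 0.07 and −0.03, Eif4a1 had −0.17 and 0.11, and Eif4a2, a helicase of initiation, had −0.41 and −0.37.

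Nuclear-encoded mitochondrial genes differed by list. Of 73 respiratory chain and ATP synthase genes encoded in the nucleus, 56 were at least 2-fold higher in members in both libraries, with medians of 1.81 in shBicd2 and 1.45 in scramble. Atp5b, the catalytic beta subunit, had 301 CPM in shBicd2 members against 115 and 246 in scramble members against 77.4, and Uqcrq of complex III had 341 against 120 and 330 against 132. Mitochondrial ribosomal proteins, also made in the cytosol and imported, had medians of 0.52 in shBicd2 and 0.23 in scramble, and 3 of 44 were at least 2-fold higher in both, a share near the 5.57% of all genes tested. Matrix enzymes lay between, at 0.45 and 0.73: Aldh2, which oxidises acetaldehyde, had log2 ratios of 1.46 in shBicd2 and 1.55 in scramble, whereas Pcx, pyruvate carboxylase, had −0.15 and −0.14.

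Zonal enzymes split in a like manner. Pericentral genes, expressed around the central vein, had the highest medians of the 23 functional lists, 2.35 in shBicd2 and 2.34 in scramble, with 8 of 12 at least 2-fold higher in both. Without barcodes holding the 9 further genes, the pericentral median was 1.43 in shBicd2, beside 1.39 for ribosomal protein genes, and 2.53 in scramble, beside 1.60. Cyp2e1, which oxidises ethanol, had 723 CPM in shBicd2 members against 130 and 728 in scramble members against 204, and Cyp1a2, another cytochrome P450, had log2 ratios of 3.06 and 3.75. Among the most counted genes of the list, Glul, Oat and Slc1a2 lay under the list median in both libraries. Glul had 341 CPM in shBicd2 members against 121 and 442 in scramble members against 298. Oat had 227 against 113 in shBicd2 and 96.5 against 59.6 in scramble. The membrane transporter gene Slc1a2 stayed at log2 ratios of 0.58 and 0.18. In shBicd2, 1 of the 12 genes was at least 2-fold lower, with 2 UMIs in members, and in scramble 0 were. Periportal genes had medians of 0.19 in shBicd2 and 0.38 in scramble, with Cyp2f2, a lung and liver cytochrome P450, at 1.70 and 1.90 and Pck1, the gate of gluconeogenesis, at −0.23 and −0.48. In the urea cycle, Otc, whose product works in the mitochondrial matrix, had log2 ratios of 2.35 in shBicd2 and 2.99 in scramble, Ass1 of the cytosolic steps had 1.89 and 1.82, and Arg1, which releases urea, had −0.13 and −0.35. Cps1 and Asl of this cycle had 0.60 and 0.11 in shBicd2 and 0.93 and 0.47 in scramble. Enzymes of the same pathway thus stood on different sides of 0 in scramble. In shBicd2 the ratio of Arg1, 0.914, had a counting interval that held 1 (0.819 to 1.02). All 7 genes of the cycle exceeded the median gene in shBicd2, and 4 did in scramble.

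Redox and metal-binding genes had medians of 1.71 in shBicd2 and 1.27 in scramble, with 9 of 16 at least 2-fold higher in both. Without barcodes holding the 9 further genes, these medians were 0.99 and 1.35. The metallothioneins were not among the strongest: Mt1 had 15887 CPM in shBicd2 members against 9487 and 9651 in scramble members against 7119, and Mt2 had log2 ratios of 0.09 and 0.34. Chaperones and enzymes of the endoplasmic reticulum had medians of 0.66 and 0.28, and Hspa5, the chief chaperone of that compartment, was nearly level at 0.13 in shBicd2 and 0.21 in scramble.

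Genes induced in hepatitis differed by list and library. The acute-phase list had medians of 0.69 in shBicd2, where 17 of 19 genes exceeded the median gene, and 0.10 in scramble, where 14 did. Of its genes, 0 of 19 were at least 2-fold higher in both, a count too small to set against the 5.57% of all genes tested. Saa1, serum amyloid A, had 14402 CPM in shBicd2 members against 9468 and 12538 in scramble members against 12792, so the members exceeded nucleus-like barcodes in shBicd2 and did not in scramble. Hp, haptoglobin, had log2 ratios of 1.39 in shBicd2 and 0.65 in scramble. Itih3, among the most counted genes of the list, was lower in shBicd2 members. It had 4247 CPM in shBicd2 members against 5879, and 6937 in scramble members against 6178. Its log2 ratios were −0.47 and 0.17. Interferon gamma targets had medians of 0.05 and 0.04, and type I interferon targets −0.05 and 0.11, both near the median gene.

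Within the interferon gamma list, chemokine mRNAs went apart. Cxcl9, a T cell attractant, had 2247 CPM in shBicd2 members against 984 and 1593 in scramble members against 1076, ratios of 2.28 and 1.48. Cxcl10, which acts on the same receptor, had 965 against 1887 in shBicd2 and 1961 against 2178 in scramble, ratios of 0.511 and 0.900. B2m, the light chain of class I antigen-presenting molecules, was the gene of this list at least 2-fold higher in both, at log2 ratios of 1.53 and 1.40, and Irf1, a transcription factor, had −1.03 and −0.39. The gap between Cxcl9 and Cxcl10 was in the same direction in both libraries and wider in shBicd2.

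Immediate early genes, whose mRNAs are made in bursts and decay quickly, had medians of −0.89 in shBicd2 and −0.24 in scramble, and 0 of 14 in shBicd2 and 3 of 14 in scramble exceeded the median gene. The scramble value was not lower than the median gene under 2 alternatives: it was −0.04 beside −0.11 for all genes without barcodes holding the 9 further genes, and −0.06 beside −0.13 in barcodes of 500 to 1500 UMIs. In shBicd2 the median was −0.73 and −0.58 under these, and −1.64 with members at 5% to 25% mitochondrial share. Zfp36, which encodes an mRNA decay factor, had 919 CPM in shBicd2 members against 2124 and 1481 in scramble members against 2105, and Junb, of the AP-1 factors, had 1686 against 3109 and 1740 against 1884. NF-kB targets had medians of −0.45 and −0.14, with the neutrophil attractant Cxcl1 at 1387 CPM in shBicd2 members against 2879 and 2197 in scramble members against 2724. Of either list, 0 genes were at least 2-fold lower in both libraries. Both lists were too small to set this count against the 0.968% of all genes tested.

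Heat shock genes had medians of −0.44 in shBicd2 and 0.67 in scramble, the one list more than 0.2 below the median gene in one library and more than 0.2 above it in the other. Opposite signs nearer to the median gene were also seen for type I interferon targets, above, and for lipid droplet genes, at −0.32 in shBicd2 and 0.0039 in scramble. The inducible chaperone gene Hspa1b had 212 CPM in shBicd2 members against 840 and 165 in scramble members against 232; Hspa1a and Hspa1b are near-identical copies, so their split is uncertain. The mitochondrial chaperonin genes Hspd1 and Hspe1 were higher in members of both libraries, at log2 ratios of 1.15 and 1.38 in shBicd2 and 1.06 and 1.25 in scramble. The opposite signs of the heat shock list went away in barcodes of 500 to 1500 UMIs, where the medians were 0.40 and 0.41, and in barcodes without an EGFP UMI, where they were 0.86 and 0.75; with members at 5% to 25% mitochondrial share they were −1.09 and 0.52.

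Lists of nuclear products were among those with low medians. The nuclear noncoding RNA list had medians of −0.67 in shBicd2 and −0.54 in scramble, and −1.29 and −0.66 with members at 5% to 25% mitochondrial share. Genes for splicing factors and nuclear speckle proteins, whose mRNAs are often held back in the nucleus, had medians of −0.52 and −0.31. All 32 lay under the median gene in scramble and 31 in shBicd2. Of the 32, 0 were at least 2-fold lower in both, too few genes to set against the 0.968% of all genes tested. Luc7l2 had 1132 CPM in shBicd2 members against 2065 and 1544 in scramble members against 2457, and Srsf5 had log2 ratios of −0.65 and −0.47. Hepatocyte transcription factors had medians of −0.36 and −0.21. Zbtb20, a repressor of fetal liver genes, had 659 against 1085 in shBicd2 and 1671 against 2798 in scramble. Some lists of other kinds lay as low as hepatocyte transcription factors in 1 library, and immediate early genes, above, lay lower than that list in both. Genes of dynein, dynactin and their adaptors had medians of −0.48 in shBicd2 and −0.05 in scramble, with Dync1h1, the dynein heavy chain, at −0.31 and −0.01. Sterol pathway genes had −0.05 in shBicd2, above the median gene, and −0.22 in scramble.

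The genes higher in members were short. The median spliced length of the 391 genes was 1383 bases, against 3458 for the 68 lower genes and 3592 for all genes tested, of which 7023 of 7026 matched the annotation by gene ID. Their median span on the genome was 7119 bases, against 22827 for the lower genes and 25192 for all. Among genes under 1000 spliced bases, 45.2% were at least 2-fold higher in both libraries, and the median log2 ratio was 1.01 in shBicd2 and 1.03 in scramble. Among genes of 8000 or more bases, 0.401% were, and the medians were −0.49 and −0.30. Noncoding genes made up 0.512% of the higher genes, 17.6% of the lower genes and 3.26% of all genes tested. Length and list overlap, since ribosomal protein and respiratory chain mRNAs are short, and their separate parts were not tested.

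The members were not uniform, and RNA content went with the mitochondrial share within them. Across shBicd2 members the share had a Spearman rho of 0.48 with the hepatocyte marker share and −0.54 with the joint share of Malat1 and Neat1; across scramble members the values were 0.57 and −0.49. In the nucleus-like barcodes the same values were 0.02 and 0.09 in shBicd2 and 0.09 and −0.03 in scramble. These are descriptions across barcodes of 1 library, which share its depth and preparation. Depth itself had a rho of −0.09 with the mitochondrial share in shBicd2 members and −0.22 in scramble members.

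From the lowest to the highest band of mitochondrial share, secreted protein mRNAs made up 67214, 161869 and 123150 CPM in the shBicd2 members of 2% to 5% (186 barcodes), 5% to 10% (139) and 10% to 25% (48). In scramble members the values were 60914, 79562 and 137546, from 144, 62 and 72 barcodes. Malat1 in the same bands had 24014, 9012 and 15439 CPM in shBicd2 and 25207, 21964 and 15616 in scramble. The scramble library thus changed stepwise, whereas in shBicd2 the extreme values lay in the 5% to 10% band. Ribosomal protein genes, at 11874, 32074 and 26993 in shBicd2 and 9557, 13831 and 28119 in scramble, followed the secreted proteins. Hemoglobin genes in these bands had 1100, 4753 and 6588 CPM in shBicd2 and 448, 1370 and 5106 in scramble, so globin RNA went up alongside, and its part in the gradients was not tested.

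**Figure D4:**
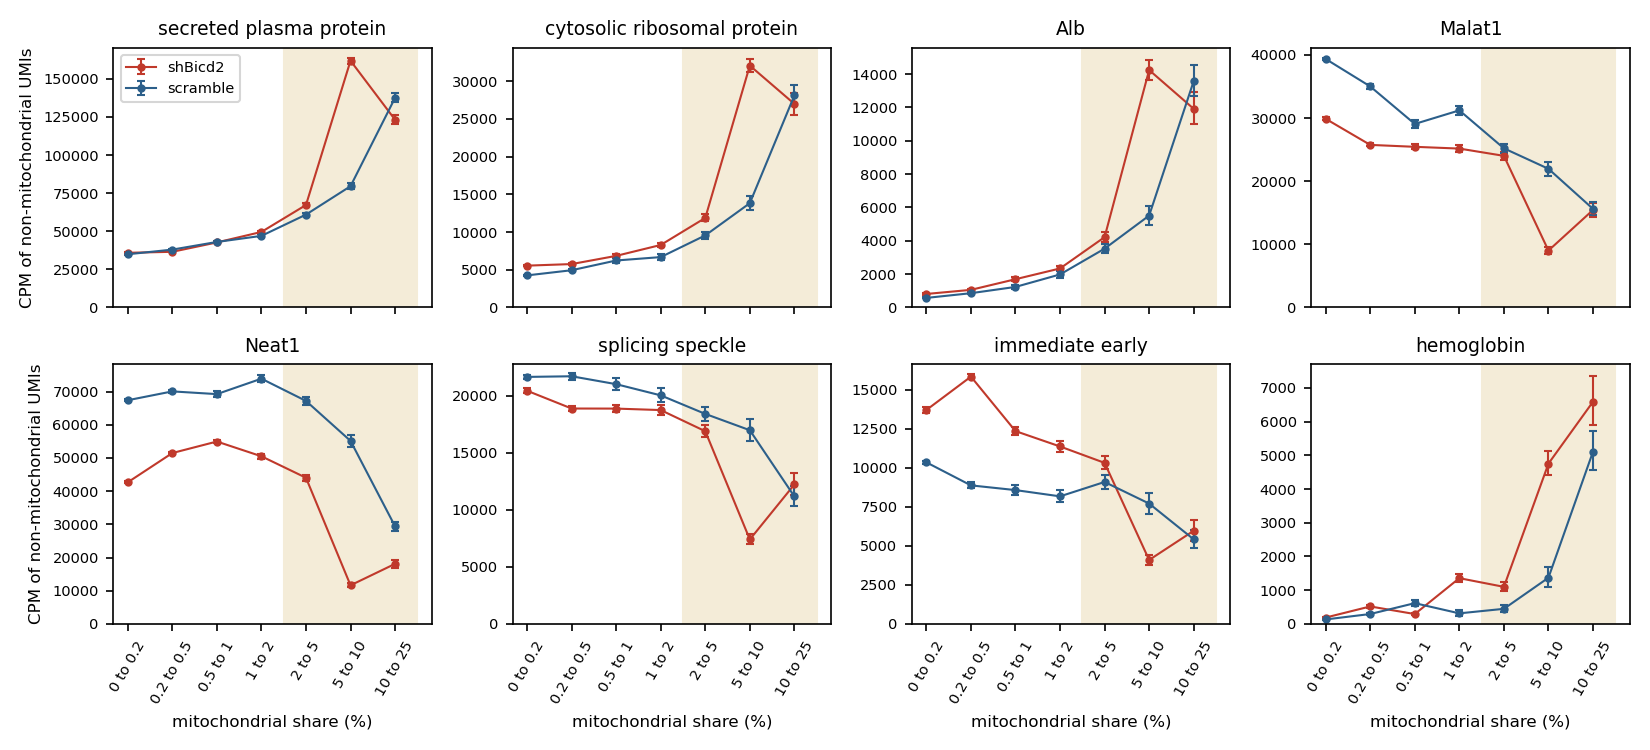
Level of 8 genes or lists in CPM of non-mitochondrial UMIs (y axes, from 0) in bands of mitochondrial share (x axis) in the shBicd2 library (red) and the scramble library (blue); bars are 95% exact Poisson intervals and the members' bands are shaded. Secreted and ribosomal protein mRNAs and hemoglobin are highest in the shaded bands, where Malat1, Neat1, splicing factors and immediate early genes are lowest, with the shBicd2 extreme at 5% to 10% for all of these but hemoglobin.

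Members of the 2 libraries were then compared with each other, over 2281 genes with at least 50 UMIs in both sets of members together. The library labelled shBicd2 was at least 2-fold higher for 147 genes (6.44%) and at least 2-fold lower for 152 (6.66%), with a median log2 ratio of −0.02. The split depended on scaling: it was 122 higher and 181 lower with TMM factors, and 127 and 171 without mitochondrial genes, Malat1 and Neat1 in the total. Of the 147 higher genes, 77 were also at least 2-fold higher in nucleus-like barcodes and 7 had the opposite sign there; of the 152 lower genes, 54 were also at least 2-fold lower and 3 had the opposite sign.

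The targeted gene could not be judged in the members. Bicd2 (chr13:49341585-49387026, plus strand), which encodes a cargo adaptor of dynein, had 5 UMIs in shBicd2 members and 5 in scramble members, a ratio of 0.767 (0.177 to 3.33). In nucleus-like barcodes it had 76 UMIs in shBicd2 and 60 in scramble, a ratio of 1.29 (0.909 to 1.84). A lower level of the hairpin's target in shBicd2 was thus not seen. So few UMIs, from nucleus-like barcodes, cannot show whether the hairpin lowered its target. The groups are called by their labels for that reason. EGFP, a feature of both matrices (the sources used here do not say which vector carries it), had 413 CPM in shBicd2 members against 46.7 in scramble members, a ratio of 8.85 (5.22 to 16.2), and in nucleus-like barcodes the ratio was 13.4. Against nucleus-like barcodes of its own library, the EGFP level was lower in members: 413 against 1010 in shBicd2 and 46.7 against 75.1 in scramble. After thinning to 500 UMIs, EGFP was seen in 12.3% (9.17% to 16.1%) of shBicd2 members against 17.2% (15.4% to 19.0%). In scramble it was seen in 1.44% (0.393% to 3.64%), from 4 members, against 2.55% (1.90% to 3.35%). These intervals overlap in both libraries.

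Among the genes furthest apart, S100a8 and S100a9, the calprotectin subunits abundant in neutrophils, had 456 and 458 CPM in shBicd2 members against 46.7 and 59.1 in scramble members. Scramble members held 15 UMIs of S100a8 and 19 of S100a9. The ratios of the 2 genes were 9.77 (5.78 to 17.8) and 7.75 (4.83 to 13.2). In nucleus-like barcodes they were 4.59 (3.32 to 6.47) and 4.04 (3.09 to 5.34), so the intervals overlap. The neutrophil list without Lcn2, which holds both genes, summed to 2540 CPM in shBicd2 members against 781 in scramble members. The part of neutrophil RNA was not tested. Orm3, an orosomucoid gene with close copies, had 146 against 12.4, the scramble level from 4 UMIs, so its ratio of 11.7 had an interval of 4.34 to 44.3. The keratin gene Krt8 had 1024 in shBicd2 members against 187 in scramble members, and Plin2, which coats lipid droplets, had 604 against 99.6. Meg3, an imprinted noncoding RNA, had 255 against 40.5, the scramble level from 13 UMIs. The glycolytic gene Pkm had 167 against 24.9, the scramble level from 8 UMIs. Its ratio was 6.71 (3.23 to 16.2) beside 3.58 (2.94 to 4.38) in nucleus-like barcodes, and these intervals overlap.

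Genes of the sterol pathway were higher in shBicd2 as a list, in members and nucleus-like barcodes alike. The median log2 ratio was 1.33 in members and 1.22 in nucleus-like barcodes. Of 12 genes, 9 were at least 2-fold higher in shBicd2 members, against 6.44% of all genes tested. Fdps, which makes farnesyl diphosphate, had 334 CPM in shBicd2 members against 49.8 in scramble members, and Hmgcs1, an early enzyme of the pathway, had 296 against 62.2. Type I interferon targets had medians of −1.21 in members and −0.90 in nucleus-like barcodes. Of 13 genes, 7 were at least 2-fold lower in shBicd2 members, against 6.66% of all genes tested. Among them was Usp18, which restrains interferon signalling, at 95.5 against 311. Immediate early genes had a median of −0.05 in members, beside 0.64 in nucleus-like barcodes and acute-phase genes had 0.37 beside −0.07; neither gap between the sets was tested.

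The lowest ratios belonged to D10Wsu102e, 189 CPM in shBicd2 members against 937 in scramble members, and to Upp2, a uridine phosphorylase, 33.4 against 190. Socs2, a brake on growth hormone signalling, had 66.9 against 317, and Mlxipl, the carbohydrate response factor ChREBP, had 962 against 2764. Ratios of Tead1, a partner of YAP, and of Skiv2l, a helicase of RNA decay, were 0.269 and 0.289, and those of Nlrp12, the ceramide synthase gene Cers6 and Nav2 were 0.267, 0.266 and 0.285. Nrp1, a co-receptor of semaphorins, had 31.0 against 146, a log2 ratio of −2.20 that was −0.53 in barcodes of 500 to 1500 UMIs. All 10 of these genes were also lower in shBicd2 in nucleus-like barcodes, at ratios from 0.117 for Nrp1 to 0.582 for Mlxipl.

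**Figure D5:**
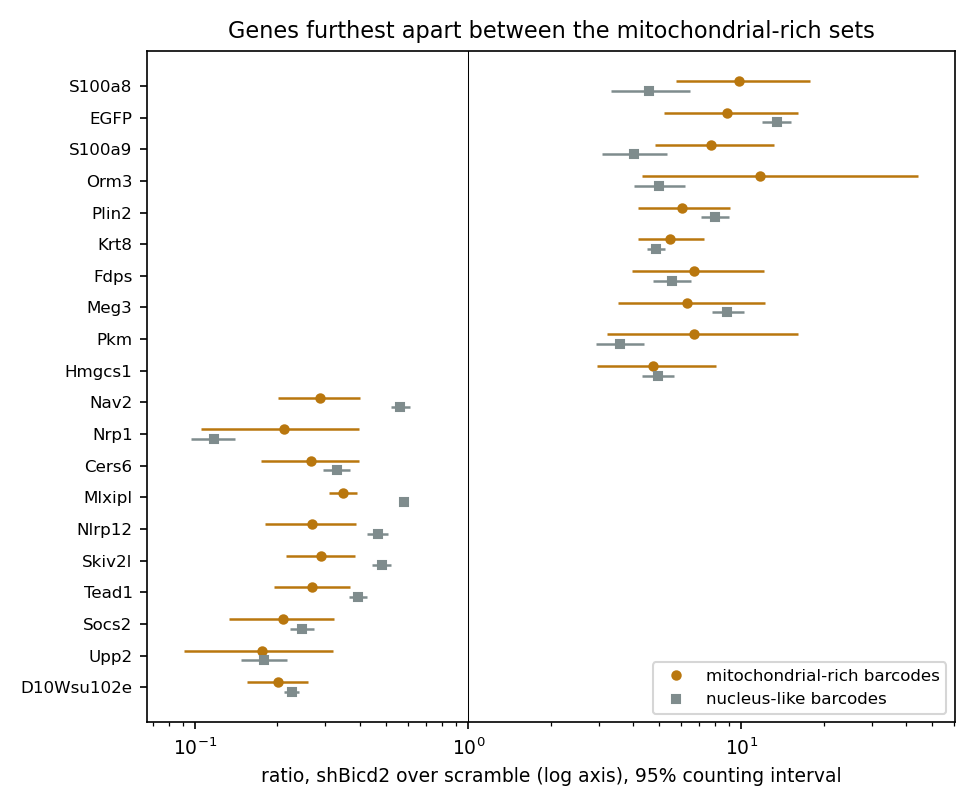
Ratio of the shBicd2 library over the scramble library (x axis, log scale) for the 10 genes highest and the 10 lowest in shBicd2 among mitochondrial-rich barcodes, in those barcodes (circles) and in nucleus-like barcodes (squares), with 95% exact conditional intervals for counting error. For all 20 genes both ratios lie on the same side of 1.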

How the data were processed

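Mouse liver RNA was counted per barcode in 1 library of each group, prepared with version 3.1 of the 10x 3′ kit per the labels' protocols. The deposited matrices hold UMI counts per gene and barcode, not normalized, for 32287 features. Cell Ranger 6.1.2 is named per the file headers, and Cell Ranger 6.0.1, Seurat 4.0.3 and mm10 per the submitters' processing notes; intron counting, doublet removal and tissue dissociation are not given in the sources used here. If introns were counted, nuclear transcripts weigh more in the nucleus-like barcodes. The libraries held 5624055 UMIs in shBicd2 and 5086306 in scramble.

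The members, gene lists and alternatives were chosen with earlier results of these data known. For each library and set, counts were added up and divided by the non-mitochondrial UMIs to give CPM (Python 3.11.15; scipy 1.17.1, numpy 2.4.6, pandas 2.3.3). Intervals are at 95%: Clopper-Pearson for shares, exact Poisson for levels, and for ratios an exact conditional binomial interval. They cover counting error only. Log2 ratios had 0.5 count added. No test was run, because each group has 1 library and barcodes are not replicates. The interval calculation was tested on simulated data.

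Named genes were the 13 mitochondrial mRNAs, Malat1, Neat1, Bicd2, EGFP, the 12 highest and 12 lowest genes of the members and the 10 highest and 10 lowest between libraries, by the interval bound nearest 1, beyond 1.5-fold, with at least 50 UMIs and 50 CPM, and up to 4 most counted members of each list. Apoa2, Ttr, Alb and Ahsg in the plasma protein list, Cyp1a2, Cyp2f2, Otc, B2m, Hp, Hspa1a, Hspd1, Hspe1 and Hbb-bs were named after their values were seen. Some genes of the lists are not reported here. Left out of the rankings were mitochondrial, hemoglobin, immunoglobulin and T cell receptor genes and genes with clone names. Doublets were kept; an alternative removed 74 barcodes of shBicd2 and 63 of scramble with the highest scores from Scrublet in scanpy 1.11.5. TMM factors came from edgeR 4.0.16 in R 4.3.3. Gene positions are from GENCODE M21 on GRCm38, the assembly that mm10 names.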

Additional observations from a re-analysis of the deposited data

Results flagged for a closer look

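The heat shock list lay more than 0.2 below the median gene in one library and more than 0.2 above it in the other, on the log2 scale. Its median log2 ratio, mitochondrial-rich over nucleus-like, was −0.44 in shBicd2 and 0.67 in scramble. The difference was not tested, because each group has 1 library. In shBicd2, 2 of the 11 genes were at least 2-fold higher in members and 2 at least 2-fold lower; in scramble 4 were higher and 0 lower. Of all genes tested, 8.77% were higher and 8.55% lower in shBicd2, and 7.91% higher and 5.66% lower in scramble, and counts this small over 11 genes were not set against these shares. In barcodes of 500 to 1500 UMIs the medians were 0.40 and 0.41, and in barcodes without an EGFP UMI 0.86 and 0.75, so the opposite signs were not there in either subset.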

How the results depend on the processing

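With members at 5% to 25% mitochondrial share, 405 genes were at least 2-fold lower in both libraries, 83 were higher and 88 lower in shBicd2 over scramble, and the shares were 6.56% in shBicd2 and 5.13% in scramble. With at least 500 genes per barcode the shares were 8.58% and 7.41%. With 12 exclusion genes, 201 genes were higher and 42 lower in members of both libraries, 59 higher and 60 lower between libraries, and the shBicd2 share was 8.38%. The counts in the same order were 751, 214, 902 and 605 with a minimum of 10 UMIs per gene, 138, 5, 35 and 29 with 200 UMIs, and 172, 29, 59 and 58 after thinning to 500 UMIs. They were 168, 32, 76 and 91 in barcodes of 500 to 1500 UMIs, an alternative chosen after seeing the data. Part of these drops follows from fewer genes reaching the minimum, 2682 in place of 7026 in the last case. In shBicd2 alone 616 genes were higher and 601 lower, and in scramble alone 398 were lower. The number of lists above the median gene in both libraries was 14 to 17 under every alternative run. Doublet removal, TMM factors, other totals, a nucleus-like limit of 0.2% and leaving out barcodes with EGFP kept every count within 1.5 times. For the genes ranked highest or lowest, 330 of 416 alternative values within libraries and 225 of 237 between libraries stayed within the counting interval. None changed sign beyond it. These genes were chosen for bounds beyond 1.5-fold in the same data, so a change of sign was unlikely from the start. The other named genes were not part of this count. No paired analysis was possible because each group has 1 library. With a median of 914 UMIs per shBicd2 member and 994 per scramble member, genes under 50 UMIs could not be compared.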
